A study of Mus musculus with 6 samples.

Results

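The transcription factors of the branchial arch mesenchyme, the loose tissue that fills the embryonic arches below the hindbrain, were followed in cells sorted from mouse hindbrains. The set holds 10 genes, namely Twist1, Prrx1, Prrx2, Dlx1, Dlx2, Dlx5, Dlx6, Hand2, Foxc1 and Foxc2. The genes were chosen with earlier results of these data known. Their probe sets were taken by symbol, with no filter on values, as every one that the platform table assigns to 1 of these symbols alone. This gave 18 of the 45037 probe sets tested and 10 of 18193 genes. Where a gene had several probe sets, the brightest by its mean over all arrays stands for it below, and the others are given beside it.

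Much of this mesenchyme derives from neural crest cells, which leave the dorsal hindbrain, migrate into the arches and build the facial skeleton, and crest from rhombomere 4 fills the second arch. Twist1 and Prrx1 act broadly in head mesenchyme, whereas the Dlx genes are expressed in nested domains along the arch from its base to its tip. Endothelin-1 from the arch surface turns on Dlx5 and Dlx6, and these in turn act on Hand2 in the tip. Several of the genes are not particular to arches, since Dlx genes also act in the forebrain and in the otic placode and Foxc genes in head mesoderm and blood vessels.

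Cells positive for tauGFP, a green fluorescent protein fused to a microtubule-binding protein, were sorted at E10.5 from the hindbrains of whole litters, and the labels give the tissue as rhombomere 4. In both genotypes the reporter sat behind an internal ribosome entry site in the Hoxb1 locus, so any cell with that locus active could enter the sort. The control group of 3 arrays carried Hoxb1-IRES-tauGFP and made Hox-B1 itself. In the swap group, also of 3 arrays, the locus carried the same reporter and encoded a paralogous Hox protein in place of Hox-B1. Reporter signal thus followed the Hoxb1 locus itself, and embryos of a litter were pooled. Each array was a biological replicate, and array medians ran from 118 to 139 intensity units. The first principal component set replicate 1 of the control group (48.6) and of the swap group (34.6) apart from the other 4 arrays (-30.1 to 0.49), and the difference of each of the 10 genes is given without these arrays as well.

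The labelled tissue was checked against its markers. Of 19 measured facial motor neuron genes 16 had a mean at or above the median level of all probe sets, a log2 intensity of 6.83, and so had 15 of 15 pan-neuronal genes and 61.4% of all genes. Of the facial motor neuron genes, Chat, Slc18a3 and Mnx1 lay below that level. The level is used throughout as a rough mark of brightness, since the deposited table has no detection calls. Of the neural crest and glia genes 13 of 13 lay at or above it, of the other arch transcription factors 21 of 34, and of mesenchymal matrix genes and receptors 20 of 28. Of the 10 arch factors followed here, 6 lay at or above it (Twist1, Prrx1, Dlx1, Dlx2, Dlx5 and Foxc2) and 4 below (Prrx2, Dlx6, Hand2 and Foxc1). Because the arrays measured bulk RNA, fewer cells of a type and less RNA per cell cannot be told apart.

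Promoter sequence was given for 7 of the 10 genes in the RefSeq table of GRCm38.p6, all but Dlx5, Dlx6 and Foxc2. The windows of Prrx1, Twist1 and Hand2 are shown because Prrx1 varied most between arrays among the 6 brighter genes, Twist1 shared its low replicate 1 arrays, and Hand2 had the largest difference between genotypes. Each line gives the 250 bases before the transcription start, 5′ to 3′ on the gene's strand, and capitals mark TAATTA, the core that many homeodomain proteins bind. The Prrx1 window is chr1:163313651-163313900 on the minus strand, the Twist1 window chr12:33957421-33957670 on the plus strand and the Hand2 window chr8:57320733-57320982 on the plus strand.
Prrx1: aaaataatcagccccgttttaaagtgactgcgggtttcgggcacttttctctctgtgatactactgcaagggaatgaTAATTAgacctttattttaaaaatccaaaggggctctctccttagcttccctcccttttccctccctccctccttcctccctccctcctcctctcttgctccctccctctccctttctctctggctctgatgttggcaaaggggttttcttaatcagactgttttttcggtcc
Twist1: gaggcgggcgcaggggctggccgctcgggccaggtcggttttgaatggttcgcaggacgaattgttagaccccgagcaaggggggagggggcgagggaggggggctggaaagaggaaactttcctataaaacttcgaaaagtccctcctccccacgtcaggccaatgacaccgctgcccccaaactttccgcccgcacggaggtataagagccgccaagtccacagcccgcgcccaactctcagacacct
Hand2: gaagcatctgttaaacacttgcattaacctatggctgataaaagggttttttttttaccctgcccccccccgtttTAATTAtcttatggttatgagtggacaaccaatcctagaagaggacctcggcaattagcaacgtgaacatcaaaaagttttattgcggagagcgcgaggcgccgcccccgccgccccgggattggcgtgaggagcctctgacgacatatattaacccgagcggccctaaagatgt
Counted on both strands in windows of 300 bases that also take in the first transcribed bases, TAATTA occurred in 2 of the 7 genes, Prrx1 and Hand2, and in 5.29% of the 32851 windows of the table. CANNTG, the E-box pattern that bHLH proteins such as Twist1 and Hand2 bind, occurred in 2 of the 7, Dlx2 and Hand2, and in 72.3% of all windows. TGATNNAT, a pattern for joint binding of Hox and Pbx proteins, occurred in 0 of the 7 and in 8.85% of all windows. No TAATTA match overlapped a match of the other patterns. The array files name no genome build, so these windows were not tied to the probe sets by position.

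None of the 10 genes passed the test. Over all 6 arrays Hand2 was the one gene of the 10 whose values did not overlap between the genotypes, a share near the 8.85% of all genes. Without both replicate 1 arrays 5 of the 10 did not overlap (Twist1, Prrx1, Prrx2, Dlx1 and Hand2), against 31.1% of all genes. limma called 0 of the 18 probe sets at an adjusted p under 0.05, against 0.0% of all 45037, and the smallest adjusted p among them was 0.818. By their means 3 of the 10 genes were higher and 7 were lower in the swap group, with a median log2 difference of -0.18 (0.06 without control array 2, -0.04 without swap array 1) beside 0.01 over all genes, of which 49.1% were lower. Without both replicate 1 arrays 6 of the 10 were lower and the median was -0.16. At an unadjusted p under 0.05 there was 1 of the 10 genes, against 3.63% of all genes. A 2-fold change in either direction lay outside the 95% interval for 3 of the 10, Twist1, Dlx2 and Foxc1, against 43.4% of all genes.

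**Figure D1:**
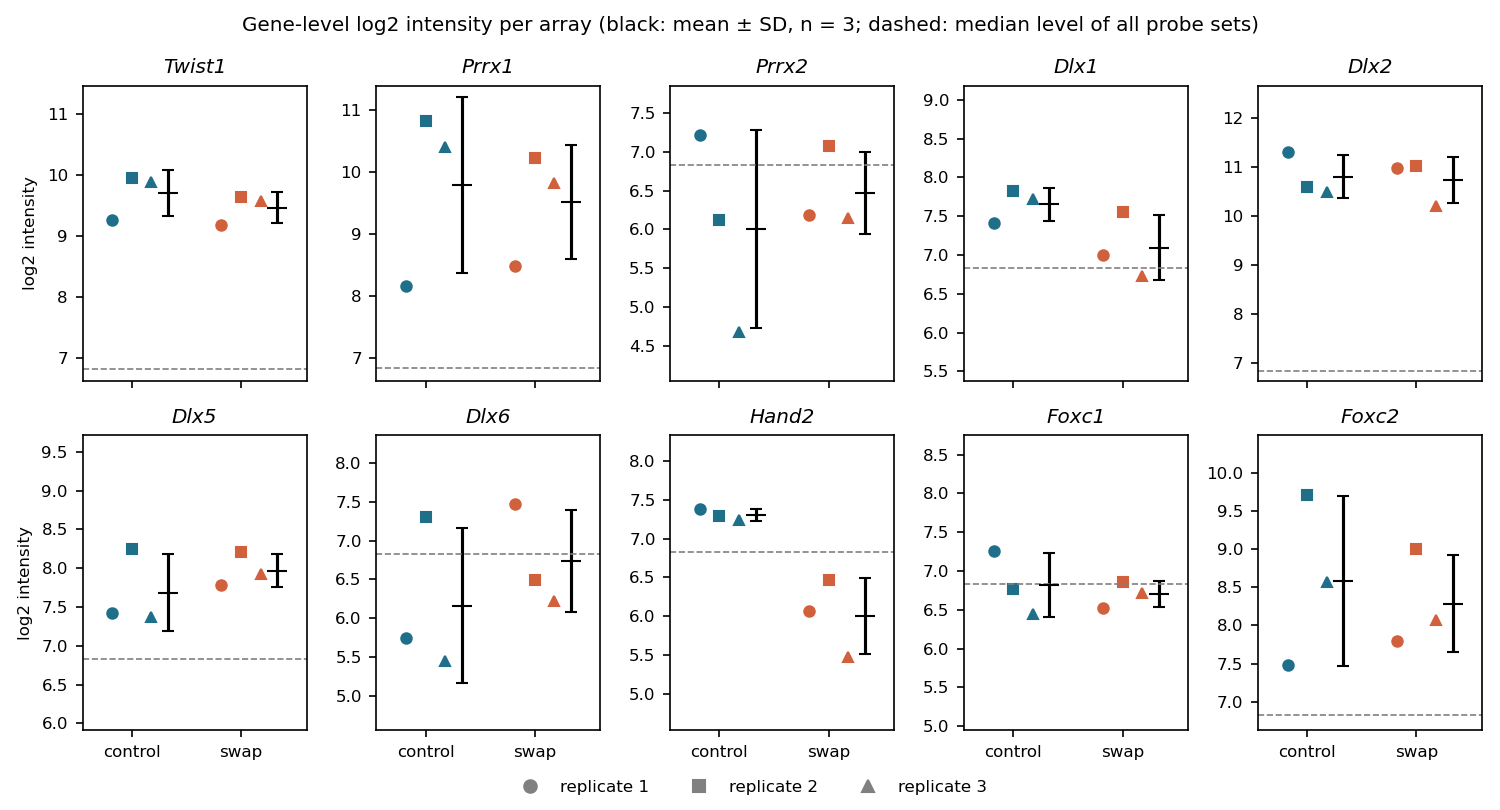
Log2 intensity of the 10 genes in each array (y axis, ranges differ between panels), by genotype, with marker shapes for the replicate number, black bars for the mean ± SD (n = 3) and a dashed line at the median level of all probe sets, 6.83. Hand2 is the panel in which all 3 swap arrays lie below all 3 control arrays, and in Prrx1 and Foxc2 both replicate 1 arrays lie below the other 4.

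Among the bHLH factors, Hand2 had the largest difference between genotypes of the 10 genes. Hand2, which patterns the distal arch and is also needed in sympathetic neurons, stood at a log2 intensity of 7.39, 7.29 and 7.24 in control replicates 1, 2 and 3 and at 6.06, 6.46 and 5.48 in swap replicates 1, 2 and 3. The control arrays lay close together above the median level and every swap array lay below it, with a gap of 0.78 between the groups. In intensity units this was 151 to 167 in the control and 44.6 to 88.1 in the swap arrays. Swap minus control came to -1.30 on the log2 scale (SE 0.31, with a 95% interval from -2.07 to -0.54), with limma's unadjusted p = 0.00611 and adjusted p = 0.818. An exact permutation test gave a two-sided p of 0.1, the smallest that 3 against 3 arrays allow. Arrays of the 2 genotypes failed to overlap for 8.85% of all genes, and for 4.55% in this direction. With 64 added to each intensity before log2, which damps dim signals, the difference was -0.78, and without both replicate 1 arrays it was -1.29.

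The other probe sets of Hand2 were noisier. Probe set 1436041_at read 5.28, 7.90 and 5.19 in the control replicates and 2.25, 6.97 and 5.42 in the swap replicates, a difference of -1.24 (SE 1.39). Probe set 1443854_at read 2.30, 5.35 and 2.64 in the control and 2.37, 3.57 and 2.06 in the swap replicates, a difference of -0.76 (SE 0.91). Both means pointed the same way as that of 1422221_at, the probe set used for the gene, but in both the genotypes overlapped, and control array 2 and swap array 2 were the brightest of their groups.

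Twist1, which keeps cranial mesenchyme in an undifferentiated state, had the smallest range over the 6 arrays of the 10 genes, 0.77. Its single probe set stood at 9.27, 9.95 and 9.89 in the control replicates and at 9.18, 9.65 and 9.58 in the swap replicates. The replicate 1 array was the lowest in each genotype and the groups overlapped. The means were 9.70 ± 0.38 and 9.47 ± 0.26 (SD, n = 3 each), a difference of -0.23 (95% interval -0.96 to 0.49, limma's adjusted p = 1.00). It was -0.45 without control array 1, and -0.11, -0.14 and -0.09 without control array 2, control array 3 and swap array 1. It came to -0.30 without both replicate 1 arrays.

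The paired-type homeobox genes Prrx1 and Prrx2, which act together in craniofacial and limb mesenchyme, differed more between arrays than between genotypes. Prrx1 was read at 8.16, 10.82 and 10.40 in the control replicates and at 8.48, 10.23 and 9.83 in the swap replicates. The replicate 1 arrays of both genotypes were low, and the highest array was 6.30-fold above the lowest. The means were 9.79 ± 1.43 and 9.51 ± 0.92 (SD, n = 3 each), and the difference of -0.28 (SE 0.84, interval from -2.35 to 1.79) was far inside that spread. It was -1.10 without control array 1, -0.64 without swap array 2 and -0.44 without swap array 3. It turned to 0.24 without swap array 1, to 0.23 without control array 2 and to 0.02 without control array 3. Without both replicate 1 arrays the range over 4 arrays shrank from 2.66 to 0.99, and the difference was -0.58, with 0 probe sets called.

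Prrx1 had 6 probe sets, and the brighter ones shared the low replicate 1 arrays. Probe set 1439774_at stood at 6.04, 8.41 and 7.74 in the control replicates and at 6.70, 7.62 and 7.94 in the swap replicates. Probe set 1432129_a_at stood at 6.77, 7.92 and 7.38 in the control and at 6.31, 7.52 and 7.36 in the swap replicates. In these 2, in 1425528_at (the gene-level one) and in the dimmer 1425526_a_at both replicate 1 arrays lay below the other 4, whereas in 1425527_at and 1458004_at, both below the median level, they did not. The 6 differences between genotypes ran from -0.95 (1425527_at, SE 0.54) to 0.03 (1425526_a_at, SE 0.52).

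Prrx2 had 1 probe set, below the median level on average, and followed another order. It stood at 7.22, 6.13 and 4.68 in the control replicates and at 6.19, 7.08 and 6.14 in the swap replicates. Here control array 1, the lowest for Prrx1, was the highest of all 6. The difference was 0.46 (95% interval -1.25 to 2.17, limma's adjusted p = 1.00). It was -0.20 without control array 3, 0.16 without swap array 2 and 1.07 without control array 1. Leaving out both replicate 1 arrays gave 1.21, and the groups no longer overlapped. With the 2 arrays per group then left, 31.1% of all genes did not overlap either.

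**Figure D2:**
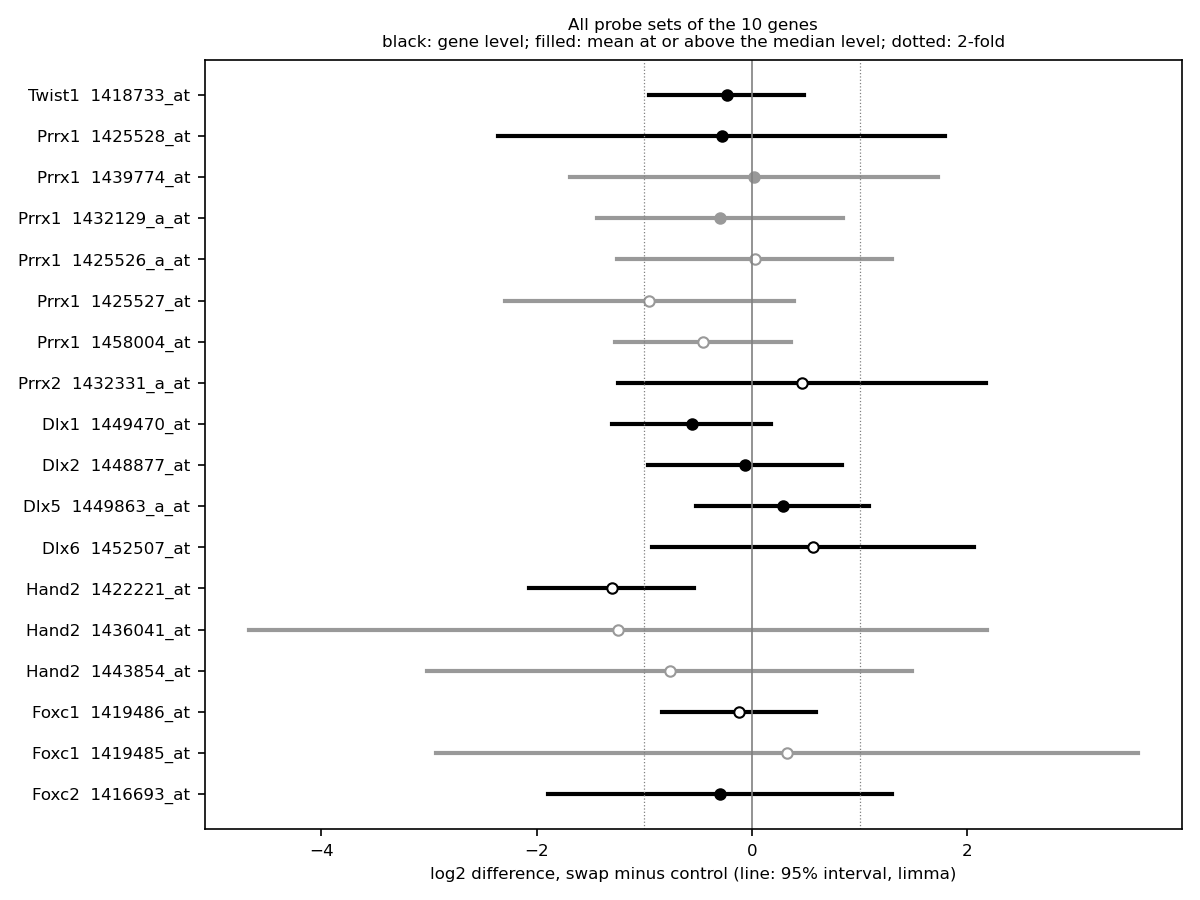
Log2 difference, swap minus control, of all 18 probe sets (points) with 95% intervals from limma (lines), black for the gene-level probe set, filled where the mean lies at or above the median level, and dotted lines at a 2-fold change. The gene-level probe set of Hand2 (-1.30) is the one whose interval leaves out 0, while its 2 dimmer probe sets and most others have intervals that pass 2-fold on at least 1 side.

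The forkhead genes Foxc1 and Foxc2, which act in head mesenchyme, in the eye and in vessels, also followed different orders over the arrays. Foxc2 stood at 7.48, 9.70 and 8.56 in the control replicates and at 7.79, 9.00 and 8.07 in the swap replicates. Replicate 1 was the lowest and replicate 2 the highest array in each genotype, with a 4.68-fold range over all 6. The means were 8.58 ± 1.11 and 8.29 ± 0.63 (SD, n = 3 each), and the difference of -0.29 (95% interval -1.89 to 1.30, limma's adjusted p = 1.00) turned to 0.27 without control array 2. It was -0.85 without control array 1, -0.65 without swap array 2, -0.19 without swap array 3 and -0.05 without swap array 1. Leaving out both replicate 1 arrays gave -0.60.

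Foxc1 was read by a pair of probe sets with little in common. The gene-level probe set 1419486_at stood at 7.26, 6.76 and 6.44 in the control replicates and at 6.52, 6.85 and 6.72 in the swap replicates. Probe set 1419485_at stood at 3.05, 7.91 and 7.01 in the control replicates and at 6.47, 7.05 and 5.44 in the swap replicates. Control array 1 was the highest array by the first and the lowest by the second. Their differences were -0.12 (95% interval -0.84 to 0.59) and 0.32 (SE 1.32), and that of the gene-level probe set ran from -0.31 without control array 3 to 0.10 without control array 1. It was -0.20 without swap array 2, -0.03 without swap array 1 and 0.19 without both replicate 1 arrays.

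The Dlx homeobox genes lie in the genome as neighbouring pairs, and 4 were in the set. In the RefSeq table no protein-coding gene starts between Dlx1 and Dlx2 on chromosome 2, or between Dlx6 and Dlx5 on chromosome 6. Dlx2, which marks crest entering the arches and forebrain progenitors, was bright throughout, with log2 intensities of 11.30, 10.60 and 10.49 in the control replicates and of 10.97, 11.02 and 10.20 in the swap replicates. The groups overlapped almost fully, with a difference of -0.06 (95% interval -0.96 to 0.84). Leaving out any 1 array moved it by more than 1.5 times, to between -0.22 (control array 3) and 0.20 (swap array 3), and it was 0.07 without both replicate 1 arrays. Its neighbour Dlx1, which acts redundantly with Dlx2 in the proximal arch, stood at 7.41, 7.83 and 7.72 in the control replicates and at 7.00, 7.55 and 6.73 in the swap replicates. Swap arrays 1 and 3 lay below every control array and swap array 2 lay among them. The log2 difference came to -0.56 (SE 0.30, interval from -1.30 to 0.18, limma's adjusted p = 1.00), and -0.63 without both replicate 1 arrays. Whether Dlx1 and Dlx2 differed from each other in this was not tested.

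Dlx5 and Dlx6, the pair that gives the lower part of the arch its identity, had the means of the swap arrays above those of the control arrays. Dlx5 stood at 7.42, 8.25 and 7.38 in the control replicates and at 7.78, 8.20 and 7.93 in the swap replicates. Control array 2 was its highest array, and the difference was 0.29 (95% interval -0.51 to 1.09). It was 0.57 without control array 2, and 0.16, 0.13 and 0.17 without control array 1, control array 3 and swap array 2. With both replicate 1 arrays left out it was 0.25. Dlx6, below the median level on average, stood at 5.74, 7.30 and 5.45 in the control replicates and at 7.47, 6.50 and 6.23 in the swap replicates. The groups overlapped through control array 2, and the difference was 0.57 (SE 0.61, limma's adjusted p = 1.00). It was 1.14 without control array 2, and 0.36, 0.21 and 0.20 without control array 1, control array 3 and swap array 1. It was -0.01 without both replicate 1 arrays.

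For 3 of the 10 genes, Prrx1, Foxc2 and Twist1, both replicate 1 arrays lay below the other 4, against 11.8% of all genes and 12.0% of the 11168 genes at or above the median level. The opposite order held for 0 of the 10 and for 10.1% of all genes. Prrx1, Foxc2, Prrx2 and Dlx6 spanned more than 2 on the log2 scale over the 6 arrays. Prrx1 and Foxc2 are among the 6 members at or above the median level, and 3.50% of all genes at or above that level spanned as much. Of the 10 genes centred on their own means, the median value was -0.14, 0.44 and -0.07 in control replicates 1, 2 and 3 and -0.30, 0.22 and -0.16 in swap replicates 1, 2 and 3. The replicate 2 arrays were thus the higher ones for the set as a whole, and 5 of the 10 genes had their highest value in control array 2. The same median over all genes at or above the median level stayed between -0.01 and 0.03 in every array.

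**Figure D3:**
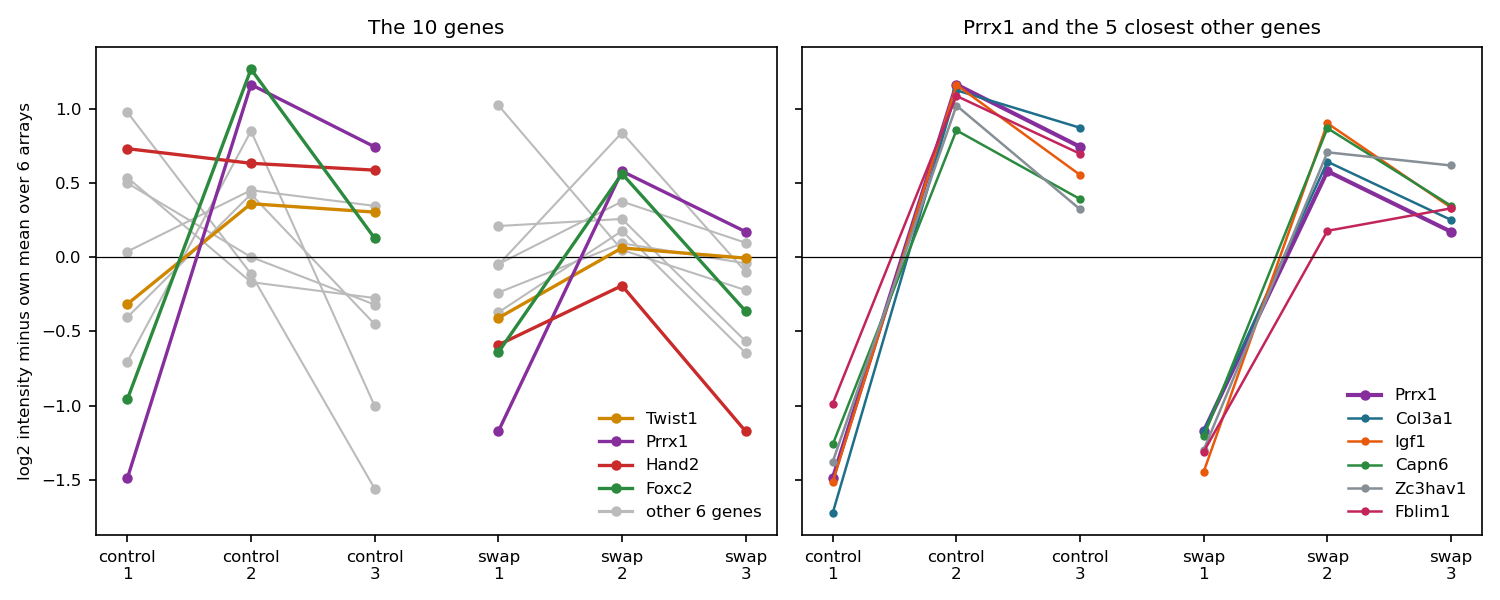
Log2 intensity in each array (x axis) minus the gene's own mean over the 6 arrays (y axis). The 10 genes are on the left. On the right is Prrx1 with the 5 closest other genes, names of clone or predicted type left out. Lines join the arrays of a genotype for reading only. On the left Prrx1, Foxc2 and Twist1 are low in both replicate 1 arrays and Hand2 is high in the control arrays alone, and on the right Col3a1 runs nearly along Prrx1.

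The genes most like Prrx1 were looked for because it had the widest range among the 6 genes at or above the median level. Without both replicate 1 arrays its range of 0.99 was below those of Foxc2 (1.63) and Dlx1 (1.10). Likeness was the root-mean-square difference, in log2 units over the 6 arrays, between profiles each centred on its own mean. Ranks given below are over all 11167 other genes. The genes named as closest were picked after names of clone or predicted type were left out. That filter also drops known genes whose names begin with a capital letter and a digit. Among those kept, the closest was Col3a1, a fibrillar collagen of loose connective tissue, at 0.12. It stood at 7.08, 9.93 and 9.68 in the control replicates and at 7.63, 9.45 and 9.06 in the swap replicates. The next were the growth factor Igf1 (0.20), the calpain relative Capn6 (0.25), the antiviral zinc-finger gene Zc3hav1 (0.27) and the adhesion adaptor Fblim1 (0.28). Of the other arch factors Foxc2 was the closest, at 0.46 and rank 33, then Twist1 at 0.72 and rank 469, while Dlx2 was at 1.26 and rank 10410. Beyond Col3a1, which stayed close to Prrx1, this order depended on the replicate 1 arrays. Without both, an alternative chosen after seeing the data, Col3a1 was at 0.06 and rank 9, Igf1 at rank 270, Fblim1 at 326, Capn6 at 1348 and Zc3hav1 at 2421. Dlx1 was then the closest arch factor, at rank 249, followed by Twist1 at 486 and Foxc2 at 2159. These are descriptions and carry no test.

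Signals and receptors that act on the arch mesenchyme were compared with the same fit. Of 16 such genes 15 were measured, of which 5 had a higher and 10 a lower swap mean, with a median difference of -0.11. limma called 0, and 0 had an unadjusted p under 0.05. Edn1, the endothelin ligand, stood at 7.01, 7.78 and 6.94 in the control replicates and at 6.25, 7.58 and 7.84 in the swap replicates, and Mef2c, a mediator of its signal, differed by 0.07 (SE 0.21). The smallest unadjusted p at or above the median level belonged to Fgf3 (1.13, SE 0.64), Shh (-0.39, SE 0.32) and the G-protein subunit Gna11 (-0.17, SE 0.22). Bmp4, a ligand of the arch epithelium, was read at 3.68 and 3.37 in the replicate 1 arrays of control and swap and between 6.98 and 7.41 in the other 4. Edn1, Mef2c and Bmp4 were chosen after their values were seen.

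The other transcription factors of arch mesenchyme were measured for 34 of 37 members. By their means 17 were higher and 17 lower in the swap group, and the median difference was 0.00. limma called 0 of them, and 1 (Osr2) had an unadjusted p under 0.05, against 3.63% of all genes. Against 8.85% of all genes, arrays did not overlap between genotypes for 2 of the 34. The smallest unadjusted p at or above the median level belonged to Foxf1 (-1.38, SE 0.71), Lhx6 (-0.53, SE 0.31) and the bHLH partner Tcf4 (0.32, SE 0.21). Osr2, a palate factor far below the median level and chosen after its values were seen, stood at 3.62, 3.88 and 3.07 in the control replicates and at 5.91, 4.92 and 6.56 in the swap replicates (2.27, SE 0.48, limma's adjusted p = 0.718). Of the close relatives, named for their kinship with the set, Hand1 differed by 0.36 (SE 0.50) and Twist2 by 0.25 (SE 0.44). Twist2 had its replicate 1 arrays lowest, at 7.99 and 8.27.

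Both replicate 1 arrays lay below the other 4 for 10 of these 34 factors (29.4%), a share given beside the 11.8% of all genes. Snai2, a factor of migrating crest and mesenchyme, had the widest range of those at or above the median level apart from Foxf1, at 6.60, 9.97 and 9.17 in the control replicates and 7.08, 9.01 and 8.03 in the swap replicates. Lhx8, a LIM factor of the upper and lower jaw, stood at 7.51, 10.13 and 9.87 in the control replicates and at 8.67, 9.64 and 9.13 in the swap replicates. Alx1, Alx4, Dlx3, Osr1, Tbx15, Tcf21, Twist2 and Zeb1 showed the same order. Named here because their values showed it, these genes carry no test.

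Matrix and receptor genes of mesenchyme were measured for 28 of 29 members. limma called 0 of them, and 1 had an unadjusted p under 0.05, against 3.63% of all genes. In this list 13 were higher by their means and 15 lower in the swap group, with a median difference of -0.09. Their summed intensity ran from 43424 to 50397 in the control and from 43516 to 50107 in the swap arrays, and replicate 2 was the highest in each genotype. A large part of each sum came from Vim, at 14.08 to 14.28 on the log2 scale, so array differences of dimmer genes weigh little in it. Both replicate 1 arrays were lowest for 5 of the 28 (17.9%), beside 11.8% of all genes. Collagen genes Col1a1, Col1a2 and Col3a1 were among these 5, whereas Col5a1, Col5a2, Col6a1, Col6a2 and Col6a3 were not. Col1a1 stood at 9.06, 11.47 and 10.54 in the control and at 9.71, 10.66 and 10.39 in the swap replicates. The smallest unadjusted p at or above the median level belonged to the pericyte and mesenchyme receptor Pdgfrb (-0.75, SE 0.34), the microfibril gene Mfap2 (-0.45, SE 0.22) and fibronectin, Fn1 (0.50, SE 0.26). Pdgfra, a receptor that marks arch mesenchyme and was chosen after its values were seen, differed by -0.31 (SE 0.47). The summed intensity of the 10 factors themselves ran from 4472 to 6200 in the control and from 3761 to 5511 in the swap arrays, again highest in replicate 2.

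**Figure D4:**
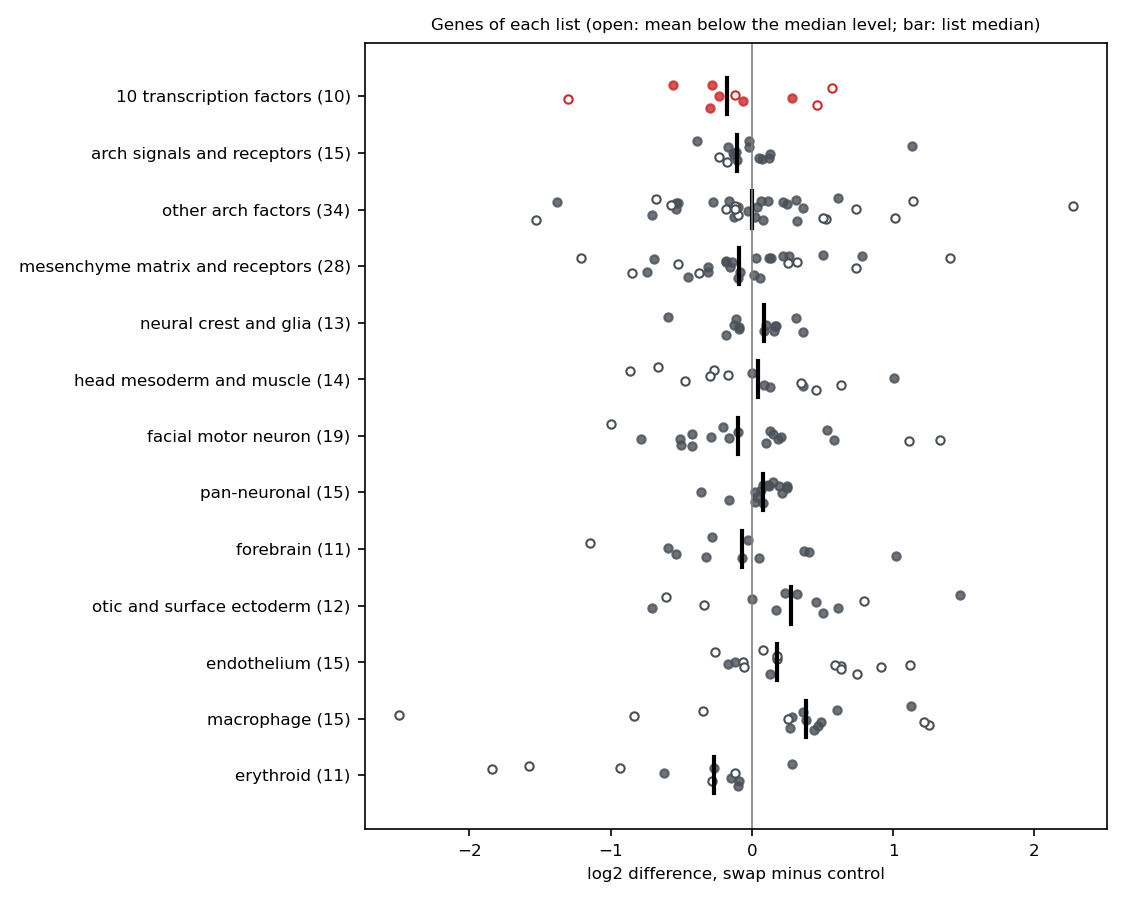
Log2 differences, swap minus control (x axis), of single genes (points) in the 10 transcription factors and in 12 other lists, with the number measured in brackets, open points for genes whose mean lies below the median level and a black bar at each list's median. The medians lie between -0.27 for erythroid and 0.38 for macrophage genes, with the 10 factors at -0.18.

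Markers of other cell types the sort could hold are given beside the arch factors, and their part in these values was not tested. Neural crest and glia genes had 13 of 15 members measured and a summed intensity of 36415 to 37506 in the control and 35669 to 39626 in the swap arrays, with both replicate 1 arrays lowest for 1 of 13. Head mesoderm and muscle genes (14 of 15 measured) had that order for 4, beside 11.8% of all genes, and 5 of the 14 reached the median level. These were Lhx2, Isl1, Pax3, Pax7 and Tcf15, of which Isl1 is also in the facial motor neuron list and Pax3 in the neural crest list. The muscle genes Msc, Myf5, Myf6, Myod1 and Myog lay below it. Forebrain genes that accompany Dlx expression had 11 of 15 measured, with Otx2 at 1.02 (SE 0.24), Lhx6 at -0.53 and Six3 at 0.40 (SE 0.33). Otic and surface ectoderm genes had 12 of 16 measured and a median of 0.28. Endothelial genes had 15 of 15 measured, 3 of them at or above the median level, and a summed intensity of 1293 to 1585 in the control and 1399 to 1669 in the swap arrays.

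Macrophage genes had the widest range of summed intensity of these lists, with 15 of 15 measured and a sum of 1187, 22441 and 2758 in control replicates 1, 2 and 3 and 3765, 7051 and 6447 in swap replicates 1, 2 and 3. Control array 2 was the highest there too, as it was for Prrx1, Foxc2, Twist1, Dlx1 and Dlx5. Erythroid genes had 11 of 14 measured and 6 with both replicate 1 arrays lowest, and their sum was 27870 and 21731 in the replicate 1 arrays of control and swap and between 35911 and 41260 in the other 4. Pan-neuronal genes had that order for 5 of 15 and facial motor neuron genes for 1 of 19, beside 11.8% of all genes. As a sign of RNA quality, the log2 ratio of 3′ to 5′ signal of the array's control probe sets was highest in swap array 1, at 2.92 for Actb and 1.93 for Gapdh, against 2.41 to 2.67 and 1.23 to 1.41 in the other 5 arrays. limma called 0 genes in any of these lists, and 0 to 2 genes per list had an unadjusted p under 0.05, against 3.63% of all genes.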

How the data were processed

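Intensities were taken from the deposited table, with 1 linear value for each probe set on each array. The affy software was used by the authors, per the submitters' processing notes, and its background correction and probe summary are not stated there. The 2% trimmed mean of the deposited intensities was 500.0 on every array. Here log2 was taken with no offset. The 64 control probe sets were left out, and genes were named from the platform table only where a probe set had 1 symbol (34945 probe sets).

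Differences are swap minus control, fitted over all 45037 probe sets with limma 3.58.1 (lmFit and eBayes, R 4.3.3), two-sided, with Benjamini-Hochberg adjustment over all of them and a threshold of 0.05. Single values were also compared by exact permutation. The p-values measure the spread between pooled litters. The members and gene lists were chosen with earlier results of these data known. In other lists the genes named are those called, or else the 3 at or above the median level with the smallest unadjusted p, beside those stated as chosen after their values were seen. No sets were tested. Alternatives were the replicate block, normalization, offset, prior, array weights, brightness filter, probe-set choice and arrays left out. No scanner files or dates were used, so no batch could be tested.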

Additional observations from a re-analysis of the deposited data

How the results depend on the processing

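limma called 0 probe sets under each of the 14 alternative fits (smallest adjusted p 0.241). Of 156 alternative values of the 10 genes 142 kept their direction, and 14 turned in differences that had not passed. The cause was not tested. Many of the 142 could not turn, since the replicate block, the prior and the brightness filter leave a gene's difference unchanged. Probe-set choice likewise leaves it unchanged for genes with a single probe set. Dlx2 turned to 0.022 with array weights. Without both replicate 1 arrays it was 0.067, Dlx6 was -0.010 and Foxc1 0.19. Foxc1 was 0.10 with the mean over its probe sets and 0.32 with its most variable one. With 1 array left out the range was -0.22 to 0.20 for Dlx2, -0.31 to 0.10 for Foxc1, -1.10 to 0.24 for Prrx1, -0.85 to 0.27 for Foxc2, -0.20 to 1.07 for Prrx2, -0.79 to -0.38 for Dlx1, -1.53 to -1.04 for Hand2 and -0.27 to 0.06 for the median of the 10. Same-numbered arrays were not treated as pairs, since their deviations from the group means correlated at 0.23, 0.03 and 0.22 for numbers 1, 2 and 3, and control array 2 correlated better with swap array 3 (0.12). Numbers 1 and 3 gave the highest of the 9 correlations between genotypes, and whether these arrays share a day or batch was not tested. With the replicate number as a block limma called 0 probe sets (smallest adjusted p 0.940), 2323 had an unadjusted p under 0.05 against 2060 without it, and the adjusted p of Hand2 was 0.940. Dim probe sets limit the set: the median SE of a difference was 0.73 below the median level and 0.28 above it.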
